A study of Komagataella phaffii with 6 samples.

Results

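The 10 genes described here encode the enzymes that carry glucose 6-phosphate down to pyruvate in Komagataella phaffii, a methylotrophic yeast long known as Pichia pastoris. They were taken by locus tag, by a rule that uses no measured value though earlier results of these data were known, and are 10 of the 5040 genes in the count table. All 10 passed the filter on low counts, which left 3330 genes for testing. The symbols came with the list of locus tags. Neither the table nor the RefSeq gene list of strain GS115 gives these tags a symbol, and the names were not checked against sequence here.

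Both groups were the wild-type strain X-33, which had grown on glycerol for 40 h in volumes of 100 ml before it was spun down and given methanol instead for 18 h. The 3 nitrogen-free libraries came from methanol medium with no nitrogen source, and the 3 ammonium libraries from methanol medium with ammonium sulfate. The comparison asks how transcripts differ when cells on methanol lack nitrogen. Each library started with 300 ng of total RNA, and the kit reads 1 fragment near the 3' end of each polyadenylated transcript. The labels number 3 replicates in each group without saying whether these were separate cultures. The p-values thus measure only the spread between these samples, which may be technical. In the main test that spread was taken mostly from all genes together, not from each gene alone.

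Glycolysis splits glucose into pyruvate. Its first stage rearranges, phosphorylates and cleaves sugar phosphates into trioses, and its second stage oxidises the trioses and makes ATP. On methanol the carbon does not enter at glucose: the yeast fixes formaldehyde in peroxisomes and releases triose phosphate, so the lower enzymes can carry carbon down to pyruvate while the reversible upper enzymes can also work towards sugar phosphates. The steps of phosphofructokinase and pyruvate kinase are irreversible, and the other steps run either way. In this yeast the promoter of TDH3 is widely used to drive foreign genes on many carbon sources.

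The nitrogen-free libraries held 302837, 395803 and 127303 counts, and the ammonium libraries 435003, 302395 and 320915. Nitrogen-free replicate 3 was the shallowest, with a median of 13 counts per tested gene against 29 to 45 in the other libraries. The members had between 29 counts (CDC19 in that library) and 1985 counts (TDH3 in nitrogen-free replicate 2). Levels are given as CPM, counts as a share of the library total in the usual unit of that name, with the total scaled by TMM, edgeR's trimmed-mean factor. Counts are relative, so a higher level of these transcripts cannot be told apart from a lower level of others, nor fewer cells from less RNA per cell.

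Transcripts of 3 of the 10 glycolysis genes were higher in nitrogen-free cells, those of PFK2, PGK1 and ENO1, by 1.53-fold, 1.41-fold and 1.52-fold. None was lower by the same test (edgeR quasi-likelihood test, adjusted p under 0.05 over all 3330 genes), and 1, TPI1, was lower at an unadjusted p under 0.05. The other 7 did not pass, and DESeq2 and limma-voom likewise called 3 higher and 0 lower. Of all tested genes, 6.34% were called, 3.66% higher and 2.67% lower, and among the 1679 tested genes with a mean of at least 100 CPM 6.43% were called higher. The calls lean on replicate 1 of both groups. Without nitrogen-free replicate 1 none of the 10 was called by edgeR, with 5 higher and 1 lower at an unadjusted p under 0.05. Without ammonium replicate 1, 1 was called (ENO1).

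The fold change was above 0 for 8 genes and below 0 for TPI1 and CDC19. The median log2 fold change was 0.30 over the 10 genes, 0.35 over the 5 genes of the sugar phosphate stage and 0.25 over the 5 of the triose stage, and 1.29e-05 over all tested genes. The triose value was 0.11 without nitrogen-free replicate 1 and 0.13 without ammonium replicate 1. Without ammonium replicate 3 the stages were level, at 0.31 for sugar phosphates and 0.32 for trioses, so no order of the stages is read from these medians. The 95% interval of the fold change lay above 0 for 7 genes and below 0 for 1, and 8 of 10 had an unadjusted p under 0.05, against 16.4% of all tested genes. TDH3 and FBA1-1 are among these, at an unadjusted edgeR p of 0.042 and 0.043, though their groups overlapped in CPM. These p-values and intervals rest mostly on a spread taken from all genes. That spread can be too narrow for a gene whose own replicates lie far apart. In CPM the groups did not overlap for 6 members, 5 of them higher and 1 lower without nitrogen. Over all tested genes the groups were apart in these directions for 10.3% and 9.91%. These shares and the 16.4% include thinly counted genes. They were not computed for genes with a mean of at least 100 CPM, as all 10 members had.

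**Figure D1:**
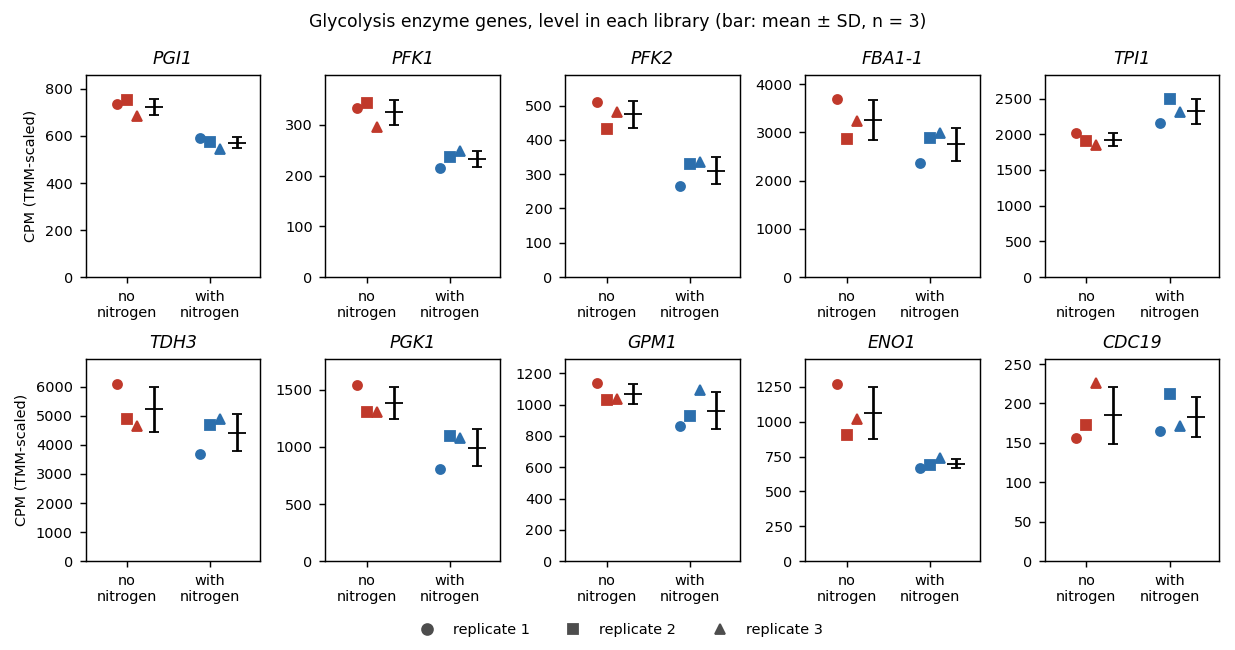
Level of each glycolysis gene in CPM (vertical axes from 0, one scale per gene) in the 3 nitrogen-free libraries (red) and the 3 ammonium libraries (blue), with marker shapes for the replicates and black bars for the mean ± SD. All 3 red points lie above all blue points for PGI1, PFK1, PFK2, PGK1 and ENO1, and below them for TPI1.

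The first enzyme, PGI1 (PAS_chr3_0456, chromosome 3, 878576 to 880258, plus strand, assembly ASM2700v1), is glucose-6-phosphate isomerase, which interconverts glucose 6-phosphate and fructose 6-phosphate. PGI1 had 735, 751 and 684 CPM in the nitrogen-free libraries, against 591, 576 and 546 CPM in the ammonium libraries. The groups did not overlap, and each was tight. Its coefficient of variation was 4.80% without nitrogen and 4.03% with it, where Poisson counting alone would give 8.02% without nitrogen and 7.17% with it. Both observed values lie below counting error, so the tight groups do not show how well replicates of this gene agree. Its difference on the log2 scale was 0.35 ± 0.14 (SE, n = 3 each; edgeR adjusted p = 0.137), so PGI1 did not pass over all genes.

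Phosphofructokinase, which commits fructose 6-phosphate to glycolysis, has an alpha and a beta subunit, encoded by PFK1 and PFK2. The enzyme of this yeast is known to hold a gamma subunit as well, whose gene is not among the 10. PFK2 (PAS_chr1-4_0047, chromosome 1, 1496126 to 1498952, plus strand) had 511, 432 and 482 CPM in the nitrogen-free libraries, against 264, 330 and 336 CPM in the ammonium libraries. Every nitrogen-free library lay above every ammonium library. For PFK2 the coefficient of variation was 8.35% without nitrogen and 12.8% with it, where counting would give 9.75% without nitrogen and 9.67% with it. PFK2 rose by a log2 fold change of 0.62 ± 0.16 (SE; 95% interval 0.30 to 0.94; edgeR adjusted p = 0.00533), a mean of 475 ± 39.7 CPM without nitrogen and 310.3 ± 39.8 CPM with it (SD, n = 3 each). The call was lost without nitrogen-free replicate 1, at a log2 fold change of 0.54 (edgeR adjusted p = 0.0918), and without ammonium replicate 1, at 0.50 (adjusted p = 0.111).

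PFK1 (PAS_chr2-1_0402, chromosome 2, 739529 to 742498, plus strand), for the alpha subunit, had 334, 343 and 296 CPM in the nitrogen-free libraries, against 216, 236 and 248 CPM in the ammonium libraries. These groups did not overlap either. The difference of 0.50 ± 0.18 on the log2 scale (SE; 95% interval 0.14 to 0.86; edgeR adjusted p = 0.0807) did not pass over all genes. PFK1 was thinly counted, at 38 to 139 counts per library. It passed in 1 of 15 alternative settings, the stricter filter on low counts (adjusted p = 0.0426), which tests fewer genes.

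A pass for one subunit and not for the other is no difference between them, so their ratio was compared directly. The log2 ratio of PFK1 to PFK2 counts was -0.61, -0.33 and -0.71 in the nitrogen-free libraries and -0.29, -0.49 and -0.44 in the ammonium libraries. The ranges overlapped, and the means differed by -0.14 (-0.55 ± 0.19 without nitrogen and -0.41 ± 0.10 with it, SD, n = 3 each; exact permutation test, two-sided, p = 0.3, where 0.1 is the smallest p this design allows). With n = 3 in each group this test could not reach the threshold of the gene tests at any depth. It thus cannot decide whether the subunits differ. The deposited gene model of PFK2 has 2 coding exons, the last of 326 bp after an intron of 70 bp, and that of PFK1 has 1.

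FBA1-1 (PAS_chr1-1_0072, chromosome 1, 680765 to 681850, plus strand) is fructose-bisphosphate aldolase, which cleaves fructose 1,6-bisphosphate into the 2 triose phosphates and also joins them. It had 3683, 2862 and 3227 CPM in the nitrogen-free libraries, against 2358, 2892 and 2996 CPM in the ammonium libraries. The groups overlapped, since nitrogen-free replicate 2 lay below ammonium replicates 2 and 3. In the fit FBA1-1 stood 0.25 ± 0.12 higher on the log2 scale without nitrogen (SE; edgeR adjusted p = 0.281), which did not pass. That value was 0.13 without nitrogen-free replicate 1 and 0.14 without ammonium replicate 1. With 415 to 1159 counts per library, counting would give a coefficient of variation of 3.74% without nitrogen and 3.25% with it, and the observed values were 12.6% without nitrogen and 12.5% with it.

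TPI1 (PAS_chr3_0951, chromosome 3, 1852579 to 1853436, plus strand) is triosephosphate isomerase, which interconverts dihydroxyacetone phosphate and glyceraldehyde 3-phosphate, the triose phosphates that formaldehyde assimilation also yields and uses. It had 2018, 1909 and 1843 CPM in the nitrogen-free libraries, against 2153, 2498 and 2311 CPM in the ammonium libraries. All nitrogen-free libraries lay below all ammonium libraries, the reverse of the order seen for PGI1, PFK1 and PFK2. The log2 fold change was -0.27 ± 0.12 (SE; 95% interval -0.51 to -0.02; edgeR adjusted p = 0.233), which did not pass over all genes and stayed below 0 under all 15 alternative settings, from -0.32 to -0.22. Its gene model opens with a coding exon of 3 bp, the start codon, followed by an intron of 111 bp.

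TDH3 (PAS_chr2-1_0437, chromosome 2, 807591 to 808592, minus strand), the glyceraldehyde-3-phosphate dehydrogenase that opens the second stage, had 6099, 4902 and 4651 CPM in the nitrogen-free libraries, against 3687, 4680 and 4875 CPM in the ammonium libraries. The groups overlapped, as nitrogen-free replicate 3 lay below ammonium replicates 2 and 3, and the widest gap was between both replicates 1. Its log2 fold change was 0.11 without nitrogen-free replicate 1 and 0.13 without ammonium replicate 1, against 0.25 with all libraries, and it passed under none of the 15 settings. Its coefficient of variation was 14.8% without nitrogen and 14.4% with it, where counting would give 3.02% without nitrogen and 2.56% with it.

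PGK1 (PAS_chr1-4_0292, chromosome 1, 1943024 to 1944274, plus strand) is phosphoglycerate kinase, the first ATP-making step. It had 1545, 1304 and 1307 CPM in the nitrogen-free libraries, against 804, 1091 and 1079 CPM in the ammonium libraries. Each nitrogen-free library lay above each ammonium library. PGK1 rose by a log2 fold change of 0.49 ± 0.13 (SE; 95% interval 0.24 to 0.75; edgeR adjusted p = 0.00408), a mean of 1385 ± 139 CPM without nitrogen and 992 ± 162 CPM with it (SD, n = 3 each). The call was lost without nitrogen-free replicate 1, at a log2 fold change of 0.40 (edgeR adjusted p = 0.134), and without ammonium replicate 1, at 0.36 (adjusted p = 0.159).

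GPM1 (PAS_chr3_0826, chromosome 3, 1599170 to 1599916, plus strand), phosphoglycerate mutase, moves the phosphate group on phosphoglycerate. It had 1140, 1030 and 1034 CPM in the nitrogen-free libraries, against 862, 929 and 1092 CPM in the ammonium libraries. The groups overlapped through ammonium replicate 3. The estimate was 0.16 ± 0.13 on the log2 scale (SE; edgeR adjusted p = 0.636), with a 95% interval of -0.10 to 0.41 on both sides of 0. With 1 library left out it ran from 0.08 without ammonium replicate 1 to 0.25 without ammonium replicate 3, and was 0.10 without nitrogen-free replicate 1.

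ENO1 (PAS_chr3_0082, chromosome 3, 183587 to 184897, plus strand) is enolase, which makes phosphoenolpyruvate. It had 1266, 904 and 1019 CPM in the nitrogen-free libraries, against 671, 690 and 736 CPM in the ammonium libraries. The groups stood well apart, with the spread mostly on the nitrogen-free side. For ENO1 the coefficient of variation was 17.4% without nitrogen and 4.79% with it, where counting would give 6.60% without nitrogen and 6.45% with it. An SE taken mostly from all genes can be too narrow for the nitrogen-free spread of this gene. ENO1 rose by a log2 fold change of 0.61 ± 0.13 (SE; 95% interval 0.34 to 0.87; edgeR adjusted p = 2.95e-04), a mean of 1063 ± 185 CPM without nitrogen and 699 ± 33.5 CPM with it (SD, n = 3 each). It passed in 14 of 15 alternative settings. Without nitrogen-free replicate 1 its log2 fold change was 0.44 (edgeR adjusted p = 0.0951).

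CDC19 (PAS_chr2-1_0769, chromosome 2, 1465321 to 1466838, minus strand) is pyruvate kinase, the irreversible last step. It had 157, 173 and 226 CPM in the nitrogen-free libraries, against 164, 212.1 and 171 CPM in the ammonium libraries. The groups lay over each other. With 29 to 74 counts per library, the estimate of -0.02 ± 0.22 on the log2 scale (SE; edgeR adjusted p = 0.969) had a wide 95% interval, -0.45 to 0.41. Its coding region overlaps by 4 bp that of a gene on the opposite strand, PAS_chr2-1_0768, which had 138 counts over all libraries against 336 for CDC19. No source used here states the strand setting of the counting, so reads of this pair cannot be told apart.

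**Figure D2:**
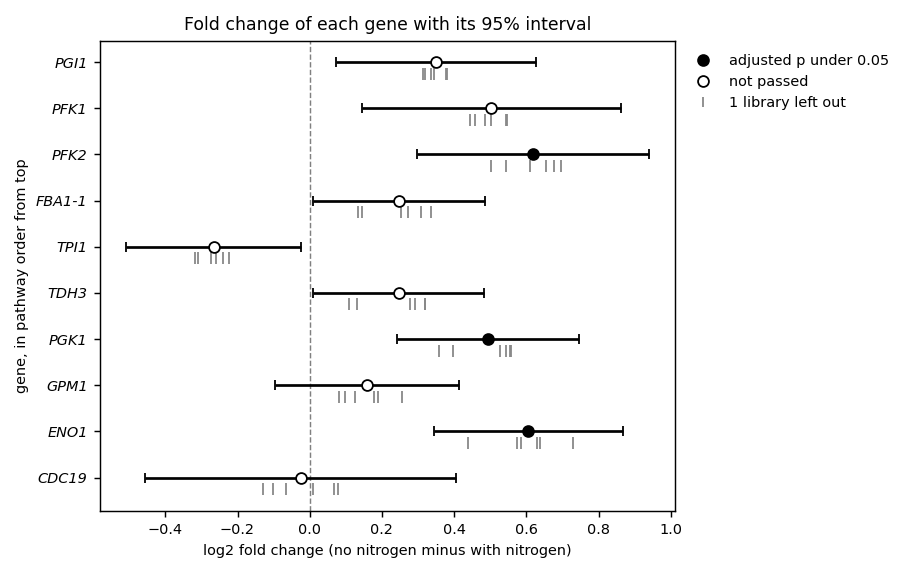
Log2 fold change of each gene (horizontal axis, nitrogen-free minus ammonium) in pathway order from the top, with 95% intervals from edgeR; filled circles passed an adjusted p of 0.05, and grey ticks are the values with 1 library left out. PFK2, PGK1 and ENO1 are filled, TPI1 lies left of 0 at -0.27, and the ticks of CDC19 fall on both sides of 0.

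Ratios between consecutive genes of the pathway within a library do not depend on the scaling, and are given as a description, with no test. The log2 ratio of PFK1 to PGI1 was -1.16 ± 0.04 without nitrogen and -1.29 ± 0.16 with it (SD, n = 3 each). Its groups overlapped, as did those of the ratio of PFK1 to PFK2 above. For FBA1-1 to PFK2 the log2 ratio was 2.77 ± 0.07 in the nitrogen-free libraries and 3.15 ± 0.01 in the ammonium libraries (SD, n = 3 each). PFK2 had 119, 98 and 106 counts in the ammonium libraries, where counting alone would give a coefficient of variation of 9.67%. The SD of 0.01 is smaller than this counting error, so it does not show a precisely held ratio. The log2 ratio of TPI1 to FBA1-1 was -0.75 ± 0.15 without nitrogen and -0.24 ± 0.12 with it. That of TDH3 to TPI1 was 1.43 ± 0.14 without nitrogen and 0.92 ± 0.15 with it. The mean log2 ratio of either neighbour to TPI1 was thus 0.51 higher in the nitrogen-free libraries, although neither TPI1 nor these neighbours passed the test.

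In the triose stage, the log2 ratio of PGK1 to TDH3 was -1.91 ± 0.07 in the nitrogen-free libraries and -2.16 ± 0.05 in the ammonium libraries. For ENO1 to GPM1 it was -0.02 ± 0.17 without nitrogen and -0.45 ± 0.11 with it. GPM1 to PGK1 was lower without nitrogen, at -0.37 ± 0.06 without it and -0.04 ± 0.17 with it. CDC19 to ENO1 stood at -2.53 ± 0.44 without nitrogen and -1.94 ± 0.21 with it, with the nearest libraries at -2.18 in nitrogen-free replicate 3 and -2.10 in ammonium replicate 3. Consecutive ratios share a gene, so these values are not independent of each other. No background of ratios of other genes was computed, and nothing is read from how far these groups lie apart.

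**Figure D3:**
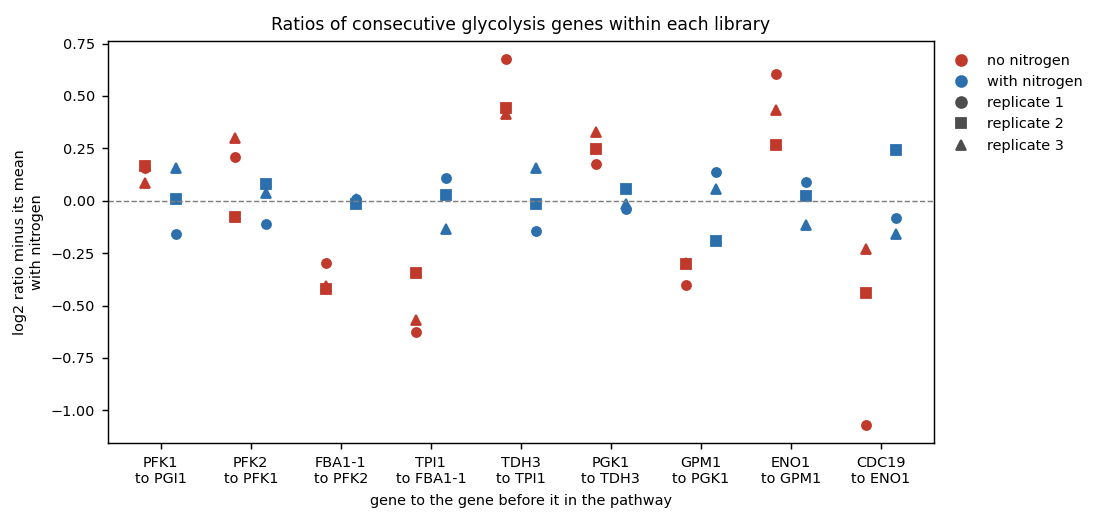
Log2 ratio of counts of each gene to the gene before it in the pathway, per library, with the mean of the ammonium libraries subtracted so that 0 is their mean (red, nitrogen-free; blue, ammonium; shapes mark replicates). TPI1 to FBA1-1 lies below 0 and TDH3 to TPI1 above 0 in all 3 nitrogen-free libraries, and CDC19 to ENO1 is the most spread, at 0.44 SD without nitrogen.

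Together the 10 genes took 1.70%, 1.49% and 1.49% of all counts in the nitrogen-free libraries, against 1.22%, 1.39% and 1.41% in the ammonium libraries. The means were 1.56% ± 0.117 without nitrogen and 1.34% ± 0.106 with it (SD, n = 3 each). The smallest distance was between 1.49% in nitrogen-free replicate 3 (exact 95% interval 1.43 to 1.56) and 1.41% in ammonium replicate 3 (1.37 to 1.45). These intervals overlap and cover counting error only. TDH3 and FBA1-1 weigh most in the sum, with 8960 and 5520 counts over all libraries. Neither passed the test and the groups overlapped for both, though each had a log2 fold change of 0.25, in the direction of the sum. The log2 fold change was -0.27 for TPI1 and -0.02 for CDC19, so the sum is not read as a shift shared by all 10 genes. The 5 genes of the triose stage took 0.891% ± 0.0866 without nitrogen and 0.723% ± 0.0734 with it. For the 5 of the sugar phosphate stage, which include TPI1, the shares were 0.670% ± 0.0323 without nitrogen and 0.617% ± 0.0346 with it.

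**Figure D4:**
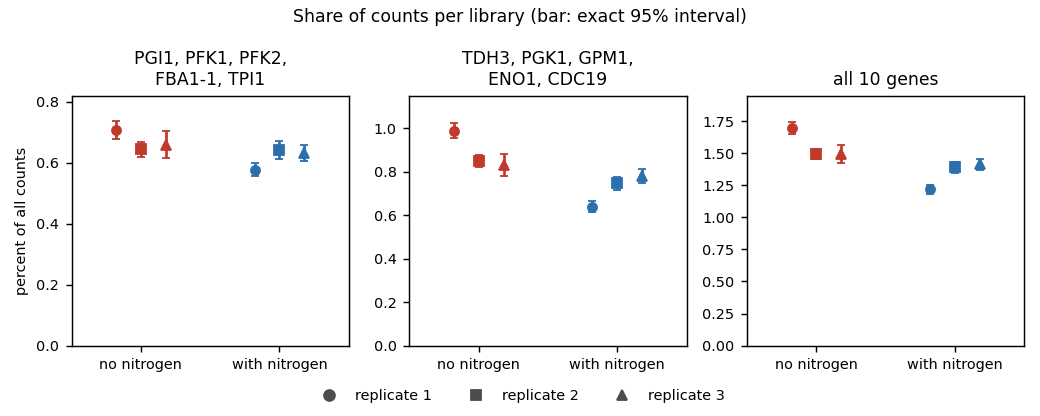
Percent of all counts per library taken by the 5 genes of the sugar phosphate stage, the 5 of the triose stage and all 10 (vertical axes from 0; bars, exact 95% intervals), nitrogen-free in red and ammonium in blue. For all 10 genes the nitrogen-free libraries lie at 1.49% to 1.70% and the ammonium libraries at 1.22% to 1.41%, with replicate 1 at the outer end of both groups.

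Nitrogen-free replicate 1 had the highest level of its group for 7 of the 10 genes, and ammonium replicate 1 the lowest of its group for 9. Over all tested genes this was so for 33.6% and 32% of genes. The members did not all share one profile over the 6 libraries: the Pearson correlation of a member with the mean standardised profile, which includes it, was 0.707 to 0.997 for 8 genes, but 0.07 for CDC19 and -0.48 for TPI1. The part of these libraries in the fold changes is seen when they are left out: the median log2 fold change of the 10 genes was 0.23 without nitrogen-free replicate 1 and 0.25 without ammonium replicate 1, against 0.30 with all 6. Without the shallow nitrogen-free replicate 3 it was 0.35, and the same number of members, 3, was called.

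Levels of different genes can be set beside each other only with caution, because the counts cover coding sequence near the 3' end and so depend on the length of the untranslated region. With 1 fragment read per transcript, counts need not grow with coding length, and division by that length lowers the values of long genes. Per kilobase of coding length, TDH3 had a mean level of 5207 CPM in nitrogen-free libraries and 4405 CPM in ammonium libraries. FBA1-1 had 2999 CPM per kilobase without nitrogen and 2531 with it, and TPI1 had 2575 without nitrogen and 3107 with it. Before division by length, the mean level of FBA1-1 was above that of TPI1 in both groups, so no order of the pair is read from these values. PFK1 had 109 CPM per kilobase without nitrogen and 78.4 with it. PFK2 had 172 without nitrogen and 113 with it, and CDC19 had 122 without nitrogen and 120.3 with it. These 3 levels were the lowest of the 10 genes in both groups. The same 3 genes were lowest before division by length. Their mean levels without nitrogen were then 185 CPM for CDC19, 324 for PFK1 and 475 for PFK2, and the next was PGI1 at 723. With nitrogen they were 183, 233 and 310 CPM, and PGI1 had 571. The 3 genes encode the enzymes of the irreversible steps, and a link between level and irreversibility was not tested.

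The genes lie scattered over chromosomes 1, 2 and 3. Apart from CDC19, ENO1 and TPI1 also face a convergent neighbour close by, at 67 bp and 85 bp. Those neighbours had 5.10% and 4.21% as many counts as the member, with log2 fold changes of 0.60 (edgeR adjusted p = 0.530) and 0.43 (adjusted p = 0.526). Any share of reads between them was not tested.

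As a wider setting, 13 further locus tags were listed from prior knowledge of central carbon metabolism. They were listed for gluconeogenesis, the glyoxylate and pentose phosphate pathways, the branch to ethanol, a hexokinase and a second aldolase. No source used here annotates these tags, so they are given by count. Of the 12 tested, 3 were higher, 1 was lower and 8 did not pass (edgeR adjusted p under 0.05), with a median log2 fold change of 0.02 and a range from -1.05 to 0.71. Over all tested genes 3.66% were higher and 2.67% lower.

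Outside the list, 2 genes with a mean of at least 100 CPM had profiles most like the mean standardised profile of the members over the 6 libraries. PAS_FragD_0020 (chromosome 4, 1744315 to 1744824; Pearson r = 0.98) had 504, 400.1 and 451 CPM in nitrogen-free libraries, against 282, 350.2 and 381 CPM in ammonium libraries. PAS_chr2-2_0112 (chromosome 2, 2170019 to 2174248; r = 0.98) had 541, 400.1 and 428 CPM in nitrogen-free libraries, against 236, 296 and 340 CPM in ammonium libraries. In both, replicate 1 was the highest of the nitrogen-free and the lowest of the ammonium libraries, as for most members. They were the closest of 1669 candidates, so their likeness is a description, and the files name no function for either.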

How the data were processed

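The table deposited by the authors holds raw counts per gene, 1 column per library and not normalized. Per the submitters' processing notes the tools were featureCounts, HISAT2 and Trimmomatic, with versions, strand setting and handling of multiply matching reads not given in the sources used here. All 5040 locus tags and positions match RefSeq assembly ASM2700v1 (strain GS115), and all 5040 lengths are multiples of 3, so untranslated regions were not counted. Samples were grouped by their titles.

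Counts were tested with edgeR 4.0.16 in R 4.3.3: filterByExpr (minimum count 10), TMM, the quasi-likelihood F-test, two-sided, Benjamini-Hochberg adjustment over 3330 genes, threshold 0.05. Fold changes are nitrogen-free minus ammonium, with SE taken as their size over the square root of F. The prior degrees of freedom were 1014, so a gene's SE came mostly from all genes. The code was tested on simulated data. Replicates differed by more than sampling noise (chi-square per degree of freedom 1.79 to 2.69). Alternatives were DESeq2 1.42.0, limma 3.58.1 (voom), other scalings and filters, a robust fit, the replicate block and each library left out. The members and lists were chosen with earlier results of these data known. All 10 members are named whatever their result; the 2 most alike genes were named by correlation. The planned ratio of FBA1-1 to a second aldolase gene was not run, since no protein sequence was at hand to check the pair. No sequences are printed.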

Additional observations from a re-analysis of the deposited data

How the results depend on the processing

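The 3 members called higher stayed 3 under the other scalings, DESeq2, limma-voom, the robust fit and no filter, and were 4 with a minimum count of 30, when PFK1 was added; none was called lower in any edgeR, DESeq2 or limma-voom setting, where at most 1, TPI1, had an unadjusted p under 0.05. With 1 library left out, 0 to 3 members were called higher. Of 150 values of members under alternatives, 141 kept direction and side of the threshold, 5 lost the call and 1 gained it. The 3 that turned sign were all of CDC19, which ran from -0.13 to 0.08 with a library left out, and lay above 0 without ammonium replicate 2 (0.0793), nitrogen-free replicate 1 (0.07) and nitrogen-free replicate 2 (0.0082). The median log2 fold change of the triose stage ran from 0.11 to 0.32 with a library left out, lowest without nitrogen-free replicate 1. Over all tested genes 211 were called (122 higher, 89 lower); DESeq2 called 119 (71 higher, 48 lower), and leaving out a library gave 129 to 183 (70 to 105 higher, 48 to 78 lower). The fit with the replicate block called 168 genes and 3 members; deviations of same-numbered libraries correlated at -0.067, -0.032 and -0.058, and each library had a higher correlation with a library of another number, so a shared number shows no pairing here. When single libraries were dropped, the members' share differed by 0.154 to 0.258 percentage points and the PFK1 to PFK2 ratio by -0.25 to -0.07. Depth limits CDC19 and PFK1 most among the members, at 29 to 74 and 38 to 139 counts per library. The causes were not tested.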
